A study of Homo sapiens with 2 samples.

Results

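The genes described here are the immediate early genes FOS, EGR1 and MYC, together with 11 relatives: FOSB, FOSL1, FOSL2, JUN, JUNB, JUND, EGR2, EGR3, IER2, IER3 and IER5. They were picked by name, through their Ensembl identifiers in GENCODE 29, out of 16145 genes listed in at least 1 library. Of these 14 genes, 8 had a value in both libraries and 5 averaged 1 FPKM or more (fragments per length of gene and per total of the library, the deposited unit), while FOSL2, JUN, JUNB, JUND, IER3 and IER5 were not analysed here. The study measured RNA by stranded mRNA sequencing in cells labelled HAL-01, a human line that the labels give as pre-B acute lymphoblastic leukaemia. The AG culture had been kept for 24 h with 0.8 mM 1,5-AG (1,5-anhydroglucitol, the deoxy form of glucose found in blood), and the sources used here do not say what the Control culture received. Each condition is 1 library, so a difference between them has no replicate error and no test, and neither condition can be told apart from the culture it came from.

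Immediate early genes are switched on within minutes of a growth factor, stress or immune signal, without new protein synthesis, and most of their mRNAs are short-lived. Signals through RAS, RAF, MEK and ERK act on serum response factor and its ETS partners, such as ELK1, at the serum response element of FOS and EGR1. FOS pairs with JUN proteins to form the transcription factor AP-1, EGR1 is a zinc finger transcription factor, and MYC pairs with MAX to drive ribosome production, metabolism and division. In blood cells FOS and EGR1 are known as genes of stimulated and maturing monocytes, and MYC as a gene of dividing progenitors.

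The cells did not show the markers of their label. Of 12 B precursor markers 7 had a value in Control and 4 had one in AG. Their summed level was 2.57 and 2.66 FPKM, while PAX5, VPREB1, CD79B and DNTT were not analysed here. Of 12 monocyte and granulocyte markers 6 had a value in Control and 7 had one in AG, with sums of 939 and 483 FPKM and single genes between 1.55 and 743 in Control and between 1.70 and 194 in AG. Within that list ITGAM, which encodes CD11b, stood at 1.55 and 8.30 FPKM, and S100A9 had 66.3 and 131. Of the granule proteins of immature myeloid cells, CTSG had 743 and 194 FPKM and MPO had 4.75 and 1.70. ELANE, another such protein, had 47.6 and 41.8 FPKM and LYZ had 75.6 and 104, both within 1.5-fold. Markers of T and NK, erythroid and stromal cells had values for at most 2 genes of a list, and NKG7 (17.2 and 10.3 FPKM) was the one above 1 FPKM. Some myeloid markers therefore differed between the libraries along with FOS, EGR1 and MYC, and their part in those differences was not tested. In bulk RNA, fewer cells of a type and less RNA per cell cannot be told apart. The totals implied by the values were 16240451 fragments for Control and 14857372 for AG.

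FOS was at least 1.5-fold higher in AG than in Control. EGR1 had its higher value in AG and MYC in Control, both within the 1.5-fold threshold, and FOSL1 and IER2 differed less. FOS stood at 6.78 FPKM in Control against 12.3 in AG, from 351 and 582 fragments. EGR1 stood at 1.85 and 3.07 FPKM, from 94 and 143 fragments. MYC stood at 48.5 and 36.8 FPKM, from 3607 and 2503 fragments. FOS and EGR1 thus had their higher value in AG and MYC had its higher value in Control. The plain ratio of AG to Control FPKM was 1.81 for FOS (95% exact Clopper-Pearson counting interval 1.58 to 2.08), 1.66 for EGR1 (1.27 to 2.18) and 0.759 for MYC (0.721 to 0.798). These intervals come from whole fragments recovered from the FPKM values and leave out any variation from culture to culture. The FOS values are also whole at the shorter lengths of 2124 and 1062 bases, where the interval would be 1.54 to 2.14 or 1.43 to 2.30. All 3 exclude 1, but so did the intervals of many genes: of 5496 expressed genes with recovered fragments, 16.8% lay wholly above 1 and 22.9% wholly below.

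A call of higher or lower was made from 1.5-fold on log2((AG FPKM + 1)/(Control FPKM + 1)), a scale that understates the change of low genes. Of the 5 members with a mean of at least 1 FPKM, 1 was higher and 0 were lower, against 3.60% higher and 3.33% lower among all 5528 such genes. The higher one was FOS, with a log2 ratio of 0.77. EGR1 had 0.52, MYC had -0.39, IER2 had 0.14 and FOSL1 had 0.06, so 4 members were above 0 and 1 below, where 43.2% of all genes were above and 56.8% below. In the order of log2 ratios over the 5528 genes, FOS lay at percentile 97.8, EGR1 at 95.6, IER2 at 79.1, FOSL1 at 66.9 and MYC at 7.33. The median over the 5 was 0.14, and over all 5528 genes it was -0.03. The call for FOS rested on the pseudocount: with 0.1 FPKM in place of 1, FOS and EGR1 were both past 1.5-fold, and with 5 FPKM none of the 5 was.

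**Figure D1:**
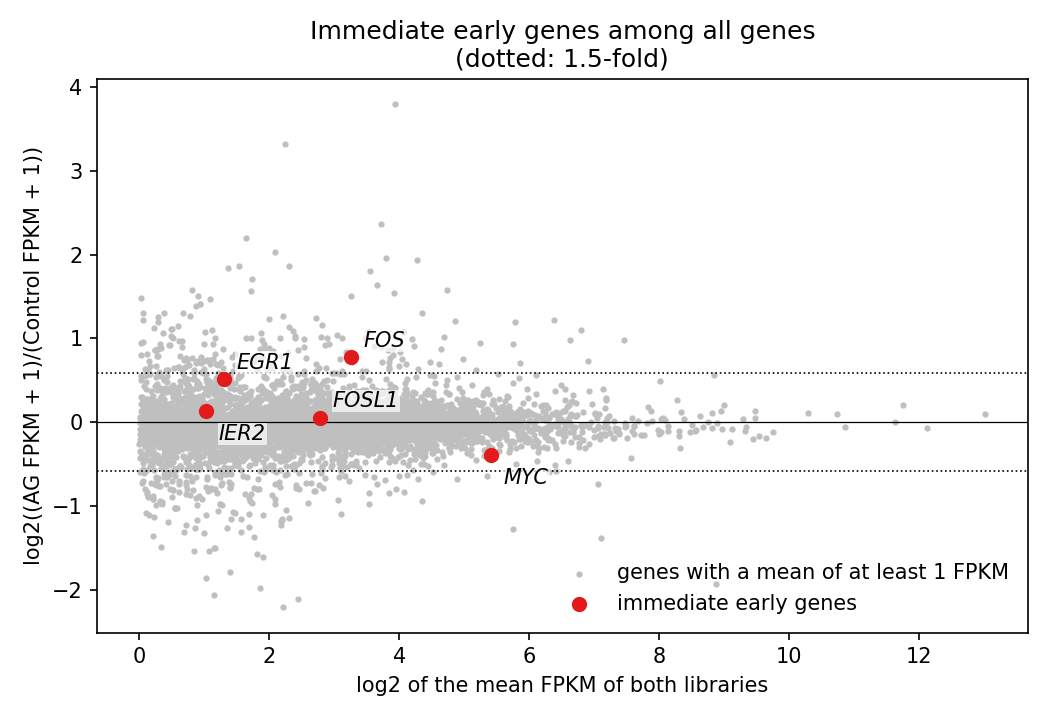
Each grey point is 1 of 5528 genes, placed by the log2 of its mean FPKM in both libraries (horizontal) and its log2 ratio of AG to Control with 1 FPKM added (vertical); dotted lines mark 1.5-fold. Of the red immediate early genes FOS, at 0.77, lies past the upper line, EGR1, at 0.52, just under it, and MYC, at -0.39, below 0 but inside the lower line.

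Within the FOS family of AP-1 proteins, FOS was higher in AG and FOSL1 differed by less than counting error. FOSL1, which encodes the FOS relative FRA-1, had 6.72 FPKM in Control against 7.03 in AG, from 206 and 197 fragments. Its ratio was 1.05 (95% counting interval 0.855 to 1.28), a range that holds both a small decrease and a small increase. In Control FOS and FOSL1 stood level, with a FOS to FOSL1 ratio within the library of 1.01 (0.847 to 1.20), and in AG FOS stood above FOSL1 with a ratio of 1.75 (1.49 to 2.07). FOSB, the FOS relative known from neurons, was close to 0, at 0.0554 and 0.0727 FPKM from 5 and 6 fragments, and its ratio of 1.31 had an interval of 0.334 to 5.43. FOS was the more abundant of the pair in each library, 122 times FOSB in Control (51.9 to 379) and 169 times in AG (77.2 to 463). A change in FOSB was not detectable at this depth. Of the JUN proteins, with which FOS must pair, none was analysed here.

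The EGR family was led by EGR1. EGR3 had 0.0245 FPKM in Control against 0.201 in AG, from 2 and 15 fragments, a ratio of 8.20 with an interval of 1.91 to 73.9. EGR2, which acts in myeloid and nerve cells, had 0.0303 and 0.0166 FPKM from 2 and 1 fragments, and its ratio of 0.547 had an interval of 0.00926 to 10.5. EGR1 and EGR3 thus both had their higher value in AG, and neither was called: EGR1 is within 1.5-fold with 1 FPKM added, and EGR3 is under 1 FPKM. For EGR2 the fragments were too few to show a direction. EGR4, from the list of further immediate early genes and named after its value was seen, had 0.234 and 0.199 FPKM. IER2, a short-lived nuclear protein induced alongside FOS, had 1.90 and 2.19 FPKM from 95 and 100 fragments (ratio 1.15, 0.860 to 1.54).

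**Figure D2:**
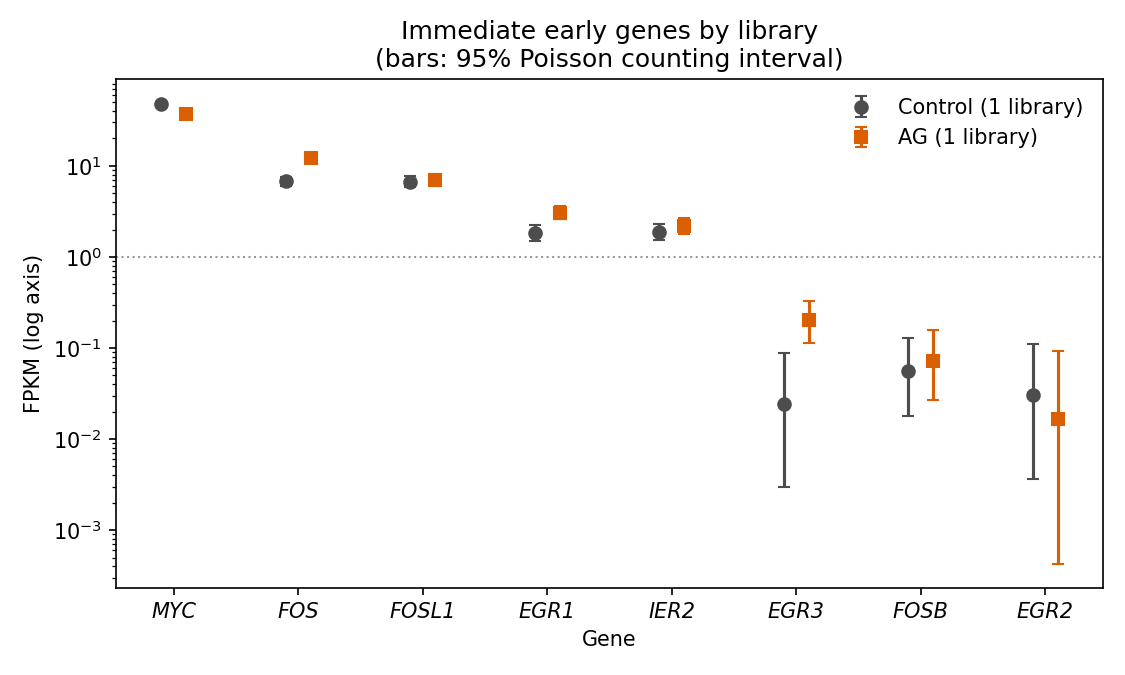
FPKM on a log axis for the 8 immediate early genes with values, grey circles for the Control library and orange squares for the AG library; bars are 95% Poisson counting intervals and the dotted line is 1 FPKM. MYC leads both libraries, at 48.5 and 36.8 FPKM, and EGR3, FOSB and EGR2 lie below 1 FPKM in both.

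MYC was the most abundant of the 8 in both libraries, at percentile 97.4 of all genes listed in Control and 96.2 of those in AG. FOS stood at percentile 80.0 in Control and 87.2 in AG, and EGR1 at 64.5 and 70.3. Control lists 13342 genes and AG 13351, with 10548 in both, so these percentiles are taken over partly different genes. In Control the order was MYC, FOS, FOSL1, IER2 and EGR1, in which FOS and FOSL1, and likewise IER2 and EGR1, were not separated by counting error: the EGR1 to IER2 ratio was 0.971 (95% counting interval 0.722 to 1.31). In AG the order was MYC, FOS, FOSL1, EGR1 and IER2, and the EGR1 to IER2 ratio was 1.40 (1.08 to 1.83). Ratios within a library do not depend on how the libraries are scaled against each other. On that footing MYC was 7.14 times FOS in Control (6.40 to 7.99) and 2.99 times FOS in AG (2.73 to 3.28). MYC was also 26.3 times EGR1 in Control (21.4 to 32.6) and 12.0 times EGR1 in AG (10.1 to 14.3). The ratio of FOS to EGR1 was 3.68 in Control (2.92 to 4.67) and 4.01 in AG (3.33 to 4.85), so these intervals overlap. A level per length depends on the gene length the submitters used. The values imply a length of 4584 bases for MYC, where the exons of GENCODE 29 cover 3001, against 3186 and 3238 for FOS and 3137 and 3138 for EGR1.

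**Figure D3:**
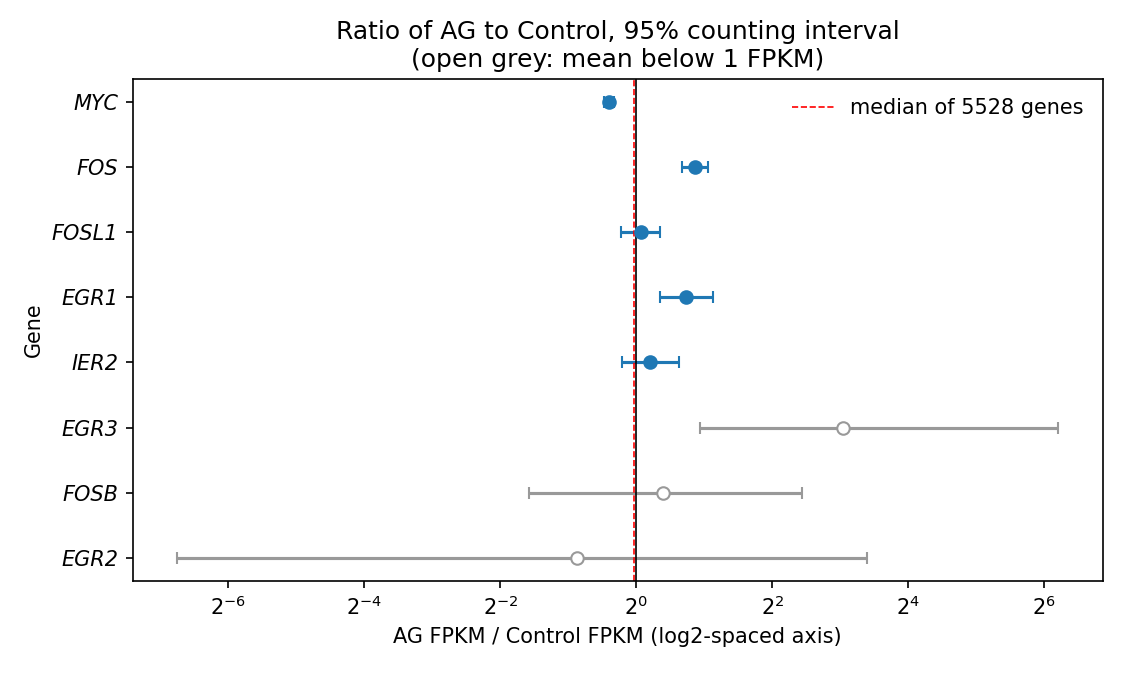
Plain ratio of AG to Control FPKM for the 8 immediate early genes on a log2-spaced axis, with 95% exact counting intervals; open grey symbols have a mean below 1 FPKM, and the dashed line is the median of 5528 genes. The intervals of FOS, EGR1 and EGR3 lie above 1, that of MYC lies below 1, and those of FOSL1, IER2, FOSB and EGR2 include 1.

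FOS (ENSG00000170345) lies on chromosome 14 at 75278774 to 75282230 and EGR1 (ENSG00000120738) on chromosome 5 at 138465490 to 138469315, both on the plus strand of GRCh38 as annotated by GENCODE 29. Both, and MYC (ENSG00000136997), are protein-coding, no other GENCODE 29 gene overlaps them, and the values are deposited per gene. Which exons a value covers is not stated in the sources used here. IER2, FOSB and EGR3 overlap a gene on the opposite strand, and because no strand setting is stated, reads of that gene may be counted in theirs.

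Because FOS and EGR1 both had their higher value in AG, the 250 bases before their RefSeq start sites are shown (RefSeq, build GRCh38.p14, plus strand, 5′ to 3′). The FOS window is chr14:75278578-75278827, whose last bases lie inside the wider GENCODE 29 gene, and the EGR1 window is chr5:138465229-138465478. Capitals mark matches, on either strand, to the CArG box (the core of the serum response element), to TGACG (the core of the cAMP response element, contained in TGACGTCA), to GCGNGGGCG (the EGR site) and to TATAAA.
FOS: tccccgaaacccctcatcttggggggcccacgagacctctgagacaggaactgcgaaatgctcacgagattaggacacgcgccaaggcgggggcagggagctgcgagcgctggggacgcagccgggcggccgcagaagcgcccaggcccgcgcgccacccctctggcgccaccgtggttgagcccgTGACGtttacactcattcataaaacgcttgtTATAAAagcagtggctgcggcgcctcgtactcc
EGR1: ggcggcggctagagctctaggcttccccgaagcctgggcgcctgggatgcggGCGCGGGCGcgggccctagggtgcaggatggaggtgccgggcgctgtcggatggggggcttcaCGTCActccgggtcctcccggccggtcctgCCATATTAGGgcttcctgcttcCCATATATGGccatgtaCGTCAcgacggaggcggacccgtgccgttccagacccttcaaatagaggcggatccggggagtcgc
The EGR1 window holds 2 CArG boxes, with their 5′ bases at -105 and -83 counted from -1 at the base before the start. It also holds 2 TGACG matches on the minus strand, at -135 to -131 and -66 to -62, and 1 EGR site at -198 to -190. The FOS window holds TGACG at -64 to -60 and TATAAA at -33 to -28 and no CArG box in these letters. Bases before the 250 were not searched, so a CArG box further upstream of FOS would be missed. Among 35116 RefSeq windows of the same length, 1.16% held a CArG box, 21.2% held TGACG, 8.41% held the EGR site and 10.7% held TATAAA. The full TGACGTCA (1.65% of windows), the AP-1 sites TGACTCA or TGAGTCA (4.20%) and the MYC site CACGTG (6.34%) were also searched and matched neither window. Of the 14 genes, 10 were found in the RefSeq table by symbol. The FOSB window shared the FOS pair of matches, with TGACG at -60 and TATAAA at -30, while FOSB stood near 0 in both libraries. A match describes these letters and does not show that a factor was bound.

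In the pathway that leads to FOS and EGR1 no gene with values was called, as for most genes of these libraries. Of 33 genes of the serum response pathway, 16 had values in both libraries and 15 had a mean of at least 1 FPKM, while 16 were not analysed here, SRF, BRAF and MAP2K1 among them. All 15 were within 1.5-fold (3.60% of all genes were higher and 3.33% lower), 4 above 0 and 11 below, with a median log2 ratio of -0.05. Among all genes, 43.2% lay above 0 and 56.8% below. The intervals of 2 lay above 1 and those of 4 below, beside 16.8% and 22.9% of all genes, so neither count sets the list apart. RPS6KA1, the ERK-activated kinase RSK1, had 1.61 FPKM in Control against 2.59 in AG (ratio 1.60, 95% counting interval 1.30 to 1.98). ELK3, a serum response factor partner that can act as a repressor, had 6.17 and 8.57 FPKM (ratio 1.39, 1.23 to 1.57). Values of both genes are also whole at shorter lengths. There the interval would be as wide as 1.19 to 2.17 for RPS6KA1 and 1.12 to 1.73 for ELK3. GRB2, the adaptor that links receptors to RAS, had 107 and 102 FPKM, and RPS6KA4, the kinase MSK2, had 45.3 and 47.1. The count of 4 intervals below 1 depends on the lengths used. GRB2 is among them, but at 1572 bases, which fits as well, its interval would be 0.907 to 1.01.

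Few of the genes that restrain ERK were above the filter. Of 18, 7 had values in both libraries and 3 had a mean of at least 1 FPKM. All 3 were within 1.5-fold, with log2 ratios of 0.00 or more (median 0.14). Among all 5528 such genes, 3.60% were called higher, 3.33% lower, and 43.2% lay above 0. DUSP6, the phosphatase that removes ERK's activating phosphates and is itself an ERK target, had 3.61 FPKM in Control against 5.30 in AG, from 226 and 304 fragments. Its log2 ratio was 0.45, and its plain ratio of 1.47 had a 95% counting interval of 1.23 to 1.75. DUSP10, a phosphatase of JNK and p38, had 11.3 and 12.5 FPKM, and RASA1, which turns RAS off, had 9.14 in both. Below 1 FPKM, SPRY1, an ERK-induced inhibitor that the naming rule leaves out, stood at 0.155 and 0.391 FPKM from 10 and 23 fragments. DUSP1, a further immediate early phosphatase outside that rule too, stood at 0.336 and 0.401 FPKM from 11 and 12 fragments. Also outside the rule, DUSP4 had its higher value in Control, with 0.347 and 0.278 FPKM from 41 and 30 fragments. DUSP16 had 0.0173 and 0.0472 FPKM from 2 and 5 fragments.

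Of the other immediate early genes, MCL1 and ID2 had a counting interval wholly above 1 and CITED2 had one wholly below. Among all expressed genes with recovered fragments, 16.8% lay above 1 and 22.9% below. Of 34 on that list, 16 had values in both libraries and 7 had a mean of at least 1 FPKM, and all 7 were within 1.5-fold (4 above 0, 3 below, median log2 ratio 0.14), where 3.60% of all genes were called higher and 3.33% lower. MCL1, a short-lived inhibitor of apoptosis, had 57.1 FPKM in Control against 69.7 in AG (ratio 1.22, 95% counting interval 1.16 to 1.28). ID2, an inhibitor of helix-loop-helix transcription factors, had 18.3 and 23.6 FPKM (ratio 1.29, 1.16 to 1.43). CITED2, which binds the coactivators CBP and p300, went the other way, with 113 and 81.8 FPKM and a ratio of 0.725 (0.693 to 0.759). Of the 7, the other 4 had an interval that included 1. The remaining 9 with values were below 1 FPKM, among them ATF3 at 0.213 and 0.350, NR4A1 at 0.0253 and 0.0738 and KLF2 at 0.349 and 0.0716, which were picked as examples after their values were seen. KLF2, a factor of quiescent blood cells, rested on 16 and 3 fragments (ratio 0.205, 0.0383 to 0.716). These 3 rested on between 3 and 21 fragments in a library.

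None of the genes measured in the MYC network and target lists had as low a log2 ratio as MYC. Of 20 genes of the MYC network, 7 had values in both libraries, all averaging 1 FPKM or more. All 7 were within 1.5-fold (2 above 0, 5 below, median log2 ratio -0.04). Among all 5528 such genes, 3.60% were called higher, 3.33% lower, 43.2% lay above 0 and 56.8% below. MAX, the partner of MYC and named after its value was seen, had 10.5 FPKM in Control against 10.4 in AG. SKP2, a ubiquitin ligase subunit that targets MYC and cell cycle inhibitors, had 18.1 and 15.3 FPKM (ratio 0.843, 95% counting interval 0.809 to 0.879). Its interval rests on an implied length of 17377 bases, where the exons of GENCODE 29 cover 3837. MYCBP2, a large ubiquitin ligase found as a MYC binding protein, had 17.8 and 15.8 FPKM (ratio 0.884, 0.849 to 0.921). Of 37 known MYC targets, 11 had values, and all 11 were within 1.5-fold (5 above 0, 6 below, median -0.01). NCL, the nucleolar protein nucleolin, had 178 and 176 FPKM (ratio 0.994, 0.976 to 1.01). The intervals of 4 targets lay above 1 and those of 0 below, beside 16.8% and 22.9% of all genes. FBL, the nucleolar methyltransferase fibrillarin, had 14.2 and 20.6 FPKM, ODC1, the first enzyme of polyamine synthesis, had 91.3 and 108, and LDHA, lactate dehydrogenase A, had 10.7 and 14.3. The other 26 targets were not analysed here, and the programme as a whole is not described by these values.

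Of 20 leucine zipper relatives that can pair with FOS or JUN or share their sites, 10 had values in both libraries. Of these, 7 had a mean of at least 1 FPKM, of which 6 were within 1.5-fold and 0 were lower (median log2 ratio 0.02). Among all 5528 such genes, 3.60% were called higher and 3.33% lower. BATF, which pairs with JUN in blood cells, had 33.0 and 35.0 FPKM and NFE2L1 had 24.3 and 25.5. NFE2L2, the oxidative stress factor NRF2, had 15.8 and 12.2 FPKM (ratio 0.773, 0.713 to 0.838).

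**Figure D4:**
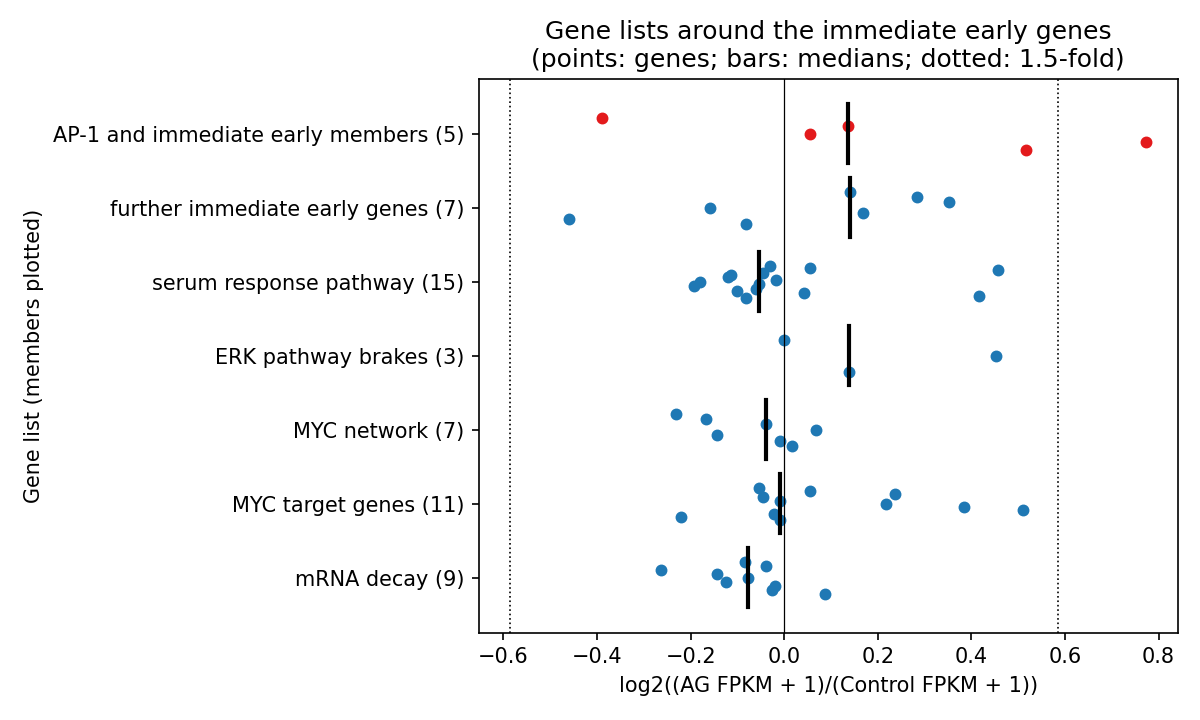
Log2 ratio of AG to Control with 1 FPKM added for each gene with a mean of at least 1 FPKM (points), by list, for 7 lists without the AP-1 partners, with the list medians as black bars and 1.5-fold as dotted lines; the number plotted is given after each name. FOS in the top row is the point past the upper line, and none of the genes plotted lies past the lower one.

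By closeness of log2(FPKM + 1) in both libraries, the protein-coding genes most like FOS were CTSD (distance 0.05 on the log2 scale), SAT1 (0.11) and PLPPR2 (0.17). CTSD, the lysosomal protease cathepsin D, had 7.08 FPKM in Control against 12.3 in AG, and SAT1, which breaks down polyamines, had 6.25 and 11.9. Those most like EGR1 were CYP26B1 (0.04), SLCO4C1 (0.07) and TMOD4 (0.08). CYP26B1, which degrades retinoic acid, had 1.87 and 3.19 FPKM. Those most like MYC were ESYT2 (0.01), LMO2 (0.06) and DIAPH1 (0.08), and LMO2, an adaptor of blood stem cell transcription factors, had 47.5 and 38.3 FPKM. With only 2 libraries this likeness means a similar level and ratio and nothing more.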

How the data were processed

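Stranded mRNA libraries, 1 of each culture, were sequenced. The deposited values are FPKM per Ensembl gene, made by the authors; the submitters' processing notes name Trimmomatic, HISAT2, Cufflinks, HTSeq and hg38 without versions. No annotation release, strand setting or filter is given in the sources used here. Both files list no zeros, so a gene without a value was neither set to 0 nor compared.

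Genes were matched by Ensembl ID to symbols and to GENCODE 29. For single-transcript genes, FPKM times exon length was a whole number of fragments, to within 0.01, for 88.4% of 5315 Control genes and 88.1% of 5259 AG genes, which fixed each library's total. The whole fragments behind a gene were then found as the gene length, nearest to the exon length of GENCODE 29, that made both libraries' values whole, in 99.4% of 5528 expressed genes (mean of at least 1 FPKM). Ratio intervals are 95% Clopper-Pearson and level intervals 95% Poisson. In simulated libraries of 5498 genes, all 5473 pairs found were right where the true length was the annotated one, and 85.6% of 5492 were right where it was not, since a multiple or fraction of the length can fit as well. No count model was fitted.

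Members and lists were chosen with earlier results of these data known. Some genes are on 2 lists. Named were all members, and from each other list the 2 most abundant, the 2 with the largest log2 ratio in size and any past 1.5-fold. Also named were the 3 genes most like FOS, EGR1 and MYC. Some genes that this rule takes in are counted but not reported here. Alternatives were pseudocounts of 0.1 and 5 FPKM, a common total, median-ratio scaling, other filters and a 2-fold threshold. The tools were matplotlib 3.10.9, pandas 2.3.3, scipy 1.17.1 and numpy 2.4.6 under Python 3.11.15.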

Additional observations from a re-analysis of the deposited data

Results flagged for a closer look

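Genes of the lists with a value in 1 library only, above the level of 3 fragments, were in no comparison. ELK1, the serum response factor partner that ERK phosphorylates, was listed in AG only, at 4.85 FPKM, and so were the ERK-induced phosphatase DUSP5 at 2.07 FPKM and the transcriptional repressor HES1 at 0.196 FPKM. MLXIPL, a glucose-sensing relative in the MYC network, was listed in Control only, at 1.73 FPKM. Of the cell type markers, CEBPE, a granulocyte transcription factor, had 1.70 FPKM and CD22, a B cell receptor inhibitor, had 0.0437 FPKM in AG only, and RAG1, a recombinase of B and T cell precursors, had 0.102 FPKM in Control only. A gene without a value in a library was not read as unexpressed there.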

How the results depend on the processing

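Across 74 recomputed values, 70 stayed within the counting interval or within 1.5 times the count and 4 moved. A reversed direction was looked for only in FOS, EGR1 and MYC, and no setting used could change their sign. The median of the further immediate early genes went from 0.14 to -0.05 with no filter on low values. That of the MYC targets went from -0.01 to 0.03 with median-ratio scaling and to 0.02 with a mean of at least 5 FPKM. With a pseudocount of 5 FPKM the log2 ratio of FOS was 0.5536, below 1.5-fold. The number of members called higher was 2 with a pseudocount of 0.1 FPKM, 0 with 5 FPKM and 0 at a 2-fold threshold; these settings by construction weigh low values differently or ask for a larger ratio. For a list median, the interval was the range between the median lower and the median upper counting bound of its members. Rescaling shifted AG by 0.01 (common total) or 0.04 (median ratio) on the log2 scale. No paired analysis was possible because there is 1 library per condition. Genes under about 20 fragments, such as EGR2, EGR3 and FOSB, are limited by depth.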

Other observations

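The mRNAs of immediate early genes are removed by the deadenylation and decay machinery. Most measured genes on a list of mRNA decay and stability had their lower value in AG. A link between these values and FOS, EGR1 or MYC was not tested. Of 23 genes of mRNA decay and stability, 10 had values in both libraries and 9 had a mean of at least 1 FPKM. All 9 were within 1.5-fold, 1 above 0 and 8 below, where 56.8% of all 5528 genes were below 0, and the median log2 ratio was -0.08, beside -0.03 over all genes. The counting intervals of 5 lay below 1 and that of 1 above, beside 22.9% and 16.8% of all genes. CNOT1, the scaffold of the CCR4-NOT deadenylase, had 55.5 FPKM in Control against 59.0 in AG (ratio 1.06, 95% counting interval 1.03 to 1.09). ELAVL1, the stabilising protein HuR, had 27.9 and 25.1 FPKM (ratio 0.901, 0.855 to 0.949). EXOSC2, a subunit of the RNA exosome, had 21.1 and 17.4 FPKM (ratio 0.826, 0.763 to 0.894). ZFP36, the decay factor tristetraprolin, was not analysed here, and its relative ZFP36L1, named after its value was seen, had 0.143 and 0.104 FPKM from 12 and 8 fragments.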
